A study of Arabidopsis thaliana with 42 samples.

Results

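The spermidine response of unopened flower buds was described in the Arabidopsis line labelled G3, over 4 libraries of plants given spermidine and 4 of plants given the mock medium. These 8 libraries were chosen by genotype, tissue and treatment, out of 24 bud libraries and 42 libraries in all. The series compares Col-0 plants deficient in methylthioadenosine nucleosidase, as seedlings and as buds. The bud groups, of 4 libraries each, were G3 with spermidine, G3 mock, mtn1-1mtn2-1 with spermidine, mtn1-1mtn2-1 mock, WT with spermidine and WT mock.

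G3 carries the same alleles as the mtn1-1mtn2-1 plants, since its genotype is given as mtn1-1mtn2-1 (G3), and what sets G3 apart is not stated. Spermidine stood at 100 µM in half-strength MS plate medium, and the mock plants had the same medium without it. All plants spent 14 days on plates before transfer to soil, and no label says whether spermidine was given after that. Each library came from pooled bud tissue, and nothing says that replicates were separate cultures, so p-values measure the spread between these samples only. In whole buds, fewer cells of a type and less RNA per cell cannot be told apart.

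Spermidine is a polyamine that plants make from putrescine and decarboxylated S-adenosylmethionine, in a step that releases methylthioadenosine. MTN1 and MTN2 are the nucleosidases that split methylthioadenosine so that its sulfur-bearing part can return to methionine. The same by-product comes from the synthesis of ethylene and of nicotianamine, a metal chelator, which ties this cycle to sulfur and iron nutrition, and loss of both nucleosidases is known to impair fertility.

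The labels of the bud tables disagree, and MTN1 shows how. The 8 libraries described here carry G3 names in the TPM table and WT names in the count table. Across 18528 genes, the log2 values, each gene centred on its mean, were correlated between the tables. Each of the 24 count columns matched 1 TPM column best, with r of at least 0.708. That was the column of the same name for 8 of them and, for the 16 named WT or G3, the column with the other of these names and the same treatment and replicate. MTN1 stood at 5.80, 4.57, 5.72 and 6.57 CPM, counts scaled to library size, in the spermidine libraries taken as G3, and at 4.80, 5.07, 5.98 and 5.16 CPM in the mock ones. It lay between 2.70 and 4.32 CPM in mtn1-1mtn2-1 buds, but between 84.3 and 96.3 CPM in the libraries taken as WT. MTN2 reached at most 0.262 CPM in either G3 group, against 8.16 to 11.9 CPM in the libraries taken as WT. The TPM names were therefore followed, and a reader who trusts the count names would call the same 8 libraries WT. Between the G3 treatments MTN1 differed by 0.11 ± 0.11 on the log2 scale (SE; adjusted p = 0.786).

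The 8 libraries held 19.1 M to 23.1 M fragments, at about 4 count units each. On the first principal component of their log2 CPM, which took 21.2% of the variance, the 4 spermidine libraries lay between -48.3 and -6.80 and the 4 mock libraries between 8.09 and 57.0. Correlations between libraries were 0.967 to 0.978 across treatments, a range that covers those within each treatment, so the treatments differ by little beside the spread between replicates.

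Of 25730 genes tested, 244 passed an adjusted p of 0.05 between spermidine and mock G3 buds, which is 0.948% of them. Of these, 151 (0.587%) rose and 93 (0.361%) fell. All 24 bud libraries entered the fit, made with edgeR's quasi-likelihood test and adjusted by Benjamini-Hochberg, and every adjusted p below is from that fit unless another is named. At an unadjusted p under 0.05 there were 3031 genes, or 11.8%. The changes were mostly modest. The median rise was 1.87-fold and the median fall 1.46-fold, and 59 genes rose and 13 fell by at least 2-fold. The CPM of the 2 groups did not overlap for 230 of the 244 genes, against 10.1% of all genes tested. Spermidine was the higher group for 141 of the 230, and for 1261 of the 2594 without overlap over all genes (4.9% of all tested).

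Among genes whose groups did not overlap and whose spermidine libraries all held at least 50 counts, the 12 steepest rises included PHI-1, TCH4 and SARD1. PHI-1, a phosphate-induced protein of the EXORDIUM family, stood at 4.99, 5.37, 11.9 and 17.0 CPM with spermidine and at 1.41, 1.12, 1.39 and 2.67 CPM in mock buds. Every spermidine library lay above every mock library, and PHI-1 rose 5.96-fold (log2 2.57 ± 0.47, SE; adjusted p = 0.0101). TCH4, a touch-induced xyloglucan-modifying enzyme of the cell wall, had 40.2, 65.8, 113 and 154 CPM with spermidine, against 5.57, 6.59, 20.8 and 32.9 CPM in mock buds. The groups came close to meeting, at spermidine replicate 1 and mock replicate 4. TCH4 rose 5.66-fold (log2 2.50 ± 0.59; adjusted p = 0.0396), and its call was lost in the robust quasi-likelihood fit (adjusted p = 0.0722) and when only these 8 libraries were fitted (0.0775).

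SARD1, a transcription factor that activates salicylic acid synthesis, was at 13.7, 13.1, 20.2 and 25.2 CPM with spermidine, against 1.69, 2.44, 3.22 and 4.43 CPM in mock buds. It rose 6.12-fold (log2 2.61 ± 0.52; adjusted p = 0.0151), with a wide gap between the groups. WRKY18, a defence-related WRKY factor, was at 24.8, 32.0, 34.8 and 55.7 CPM with spermidine, against 8.51, 7.88, 10.7 and 13.1 CPM in mock buds. That is a 3.66-fold rise (log2 1.87 ± 0.31; adjusted p = 0.00704). CPK28, a calcium-dependent kinase that limits immune signalling, rose by about the median of the risers. It held 58.2, 56.7, 56.8 and 80.2 CPM with spermidine and 28.9, 30.6, 41.5 and 33.0 CPM in mock buds, a 1.88-fold rise with the same adjusted p.

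Under the same filter, the other 9 of the 12 steepest rises ran from 3.84-fold to 6.84-fold. They were AT5G54720 and AT5G54710, AT4G18253, AT5G19190, AT4G15700, ERD6 of the sugar transporter family, AT1G65490, AT4G33420 and AT1G50040. The filter left out called genes with fitted changes in or above this range, such as GSTU12, XTH18, AT4G16820, EXO and AT3G19680, which are named after their values were seen. AT5G54710 and AT5G54720 are adjacent ankyrin repeat genes by the reference annotation, and how the counting split reads between them is not given, so their separate values are uncertain. AT5G54720 was at 1.49, 2.54, 3.13 and 5.22 CPM with spermidine, against 0.224, 0.130, 0.780 and 0.678 CPM in mock buds. AT4G33420, a peroxidase by that annotation, was at 2.91, 2.46, 4.12 and 4.87 CPM with spermidine, against 0.870, 0.848, 0.533 and 1.46 CPM in mock buds (3.85-fold; adjusted p = 0.00704). When only these 8 libraries were fitted, AT5G54720 and AT1G65490 lost their calls (adjusted p = 0.0507 and 0.0601). AT1G65490 lost its call by more in another alternative fit, and AT1G50040 also lost its call narrowly in an alternative fit.

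Among the genes that fell, NF-YA2 had the smallest p of all genes tested. NF-YA proteins are the DNA-contacting subunits of the trimeric NF-Y factor, and many NF-YA messages in plants carry a site for the microRNA miR169. NF-YA2 stood at 6.49, 7.90, 8.04 and 6.75 CPM with spermidine and at 14.0, 16.4, 15.4 and 10.1 CPM in mock buds. No library overlapped, and NF-YA2 was 1.92-fold lower (log2 -0.94 ± 0.11; adjusted p = 0.000395). Its close relative NF-YA10 was at 2.68, 2.97, 3.16 and 2.60 CPM with spermidine and 4.30, 6.46, 6.10 and 5.49 CPM in mock buds, which is 1.96-fold lower (adjusted p = 0.0101). In WT buds, NF-YA2 averaged 19.9 CPM with spermidine and 20.4 CPM in mock buds, so both G3 groups lay below WT.

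All 10 NF-YA genes had a log2 fold change below 0 in G3 buds, and NF-YA2 and NF-YA10 were the only 2 called. The other 8 ran from -0.50 for NF-YA6 to -0.05 for NF-YA9. The family was examined after NF-YA2 had been seen. The sequences below show the miR169 forms and the best ungapped matches to them in 4 of these messages, from the RefSeq annotation of TAIR10.1, with T written for U. In the microRNAs the capitals mark the seed, bases 2 to 8. In the sites they mark bases that pair with the named microRNA.
miR169d, chr1:20039556-20039576, minus strand: tGAGCCAAggatgacttgccg
miR169h, chr1:6695544-6695564, minus strand: tAGCCAAGgatgacttgcctg
NF-YA2 site for miR169d, chr3:1676806-1676826, minus strand: aGGCAAaTCATCtTTGGCTCA
NF-YA10 site for miR169d, chr5:1986750-1986770, plus strand: aGGCAAaTCATCtTTGGCTCA
NF-YA6 site for miR169h, chr3:4644334-4644354, plus strand: aAGGgAAGTCATCCTTGGCTA
NF-YA3 site for miR169h, chr1:27405638-27405658, minus strand: agGGgAAGTCATCCTTGGCTA
All 4 sites lie in the 3' UTR. The sites of NF-YA2 and NF-YA10 are the same 21 letters, with 3 mismatches to miR169d, which shares its sequence with miR169e, miR169f-5p and miR169g-5p. NF-YA6 has 2 mismatches and NF-YA3 has 3, both to miR169h, whose seed is shifted by 1 base against that of miR169d. Within 3 mismatches 10 tested genes, or 0.0392% of those scanned, matched a miR169 form, and 9 of them had log2 fold changes below 0. Of these 10, 2 were called, both lower. Over all genes tested 0.361% were called lower, and the median log2 fold change was -0.01. The libraries hold polyadenylated RNA, so mature microRNAs were not measured, and these matches are descriptions of sequence only.

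A few genes known as targets of miR398 and miR858 were also called lower, and these were looked up after their values were seen. CSD1, the cytosolic copper/zinc superoxide dismutase, was at 205, 243, 245 and 234 CPM with spermidine and 274, 347, 324 and 324 CPM in mock buds, a 1.37-fold fall (adjusted p = 0.00704). CSD2, its plastid counterpart, was at 155, 195, 196 and 190 CPM with spermidine, against 203, 240, 251 and 254 CPM in mock buds (adjusted p = 0.0347). Their copper chaperone CCS was not called, at 42.6 to 62.6 CPM with spermidine and 43.5 to 79.0 CPM in mock buds (adjusted p = 0.753). MYB12 and MYB111, activators of flavonol synthesis, fell with log2 fold changes of -0.74 ± 0.13 and -0.40 ± 0.08 (adjusted p = 0.00891 and 0.0248). The third member of that group, MYB11, had a log2 fold change of -0.98 ± 0.30 and was not called (adjusted p = 0.131). The matches in CSD1, MYB12 and MYB111 show where these 3 messages resemble miR398 and miR858.
miR398a-3p, chr2:1041012-1041032, plus strand: tGTGTTCTcaggtcacccctt
CSD1 site for miR398a-3p, chr1:2827177-2827685, plus strand, joined across an intron: AAGGGGTttCCTGAGAtCACA
miR858a, chr1:26773695-26773715, minus strand: tTTCGTTGtctgttcgacctt
MYB12 site for miR858a, chr2:19478416-19478436, plus strand: cAGGgaGAACAGACAACGAAA
MYB111 site for miR858a, chr5:19999866-19999886, minus strand: cAGGaaGAACAGACAACGAAA
Each of these sites has 3 mismatches, and CSD2 had no ungapped match to miR398 within 4. Most matching genes were not called. Within 4 mismatches, 18 tested genes matched miR398, of which 1 was called and 7 lay below 0, and 30 matched miR858, of which 2 were called and 20 lay below 0. For miR169 the numbers were 38 genes, of which 2 were called lower, 1 higher, and 27 lay below 0. Over all genes tested 0.948% were called, and the median log2 fold change was -0.01. The CSD1 site is in the 5' UTR, and those of MYB12 and MYB111 are in coding sequence.

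Other falls are given by the same filter on overlap and counts, here in the mock libraries, with ADH1 added because it was called whichever library was left out. The filter left out called genes with falls steeper than that of CDF3, such as U1.4, SRS4 and MYB112, which are named after their values were seen. GPT2, a plastid glucose-6-phosphate translocator, was at 1.40, 1.52, 1.04 and 1.58 CPM with spermidine and 5.09, 4.03, 4.33 and 3.28 CPM in mock buds, a 3.02-fold fall (adjusted p = 0.0135). CDF3, a DOF factor of the photoperiodic flowering pathway, was at 9.87, 7.34, 6.06 and 5.59 CPM with spermidine, against 15.1, 16.9, 19.5 and 13.7 CPM in mock buds (2.26-fold lower; adjusted p = 0.0143). ADH1, alcohol dehydrogenase, was at 17.1, 19.5, 17.6 and 18.9 CPM with spermidine and 30.1, 28.4, 35.6 and 27.1 CPM in mock buds (1.66-fold lower; adjusted p = 0.00704). EXPA1, an expansin that loosens cell walls, AT5G05250, MAN1, ORG1, AT1G80130 and AT4G10265 fell by 1.92-fold to 4.10-fold. When only these 8 libraries were fitted, EXPA1, MAN1, AT4G10265 and, by a narrow margin, ORG1 lost their calls (adjusted p of 0.0514, 0.0748 and 0.143 for EXPA1, MAN1 and AT4G10265). AT1G80130 lost its call in limma on TPM (adjusted p = 0.0533) and in another alternative fit.

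**Figure D1:**
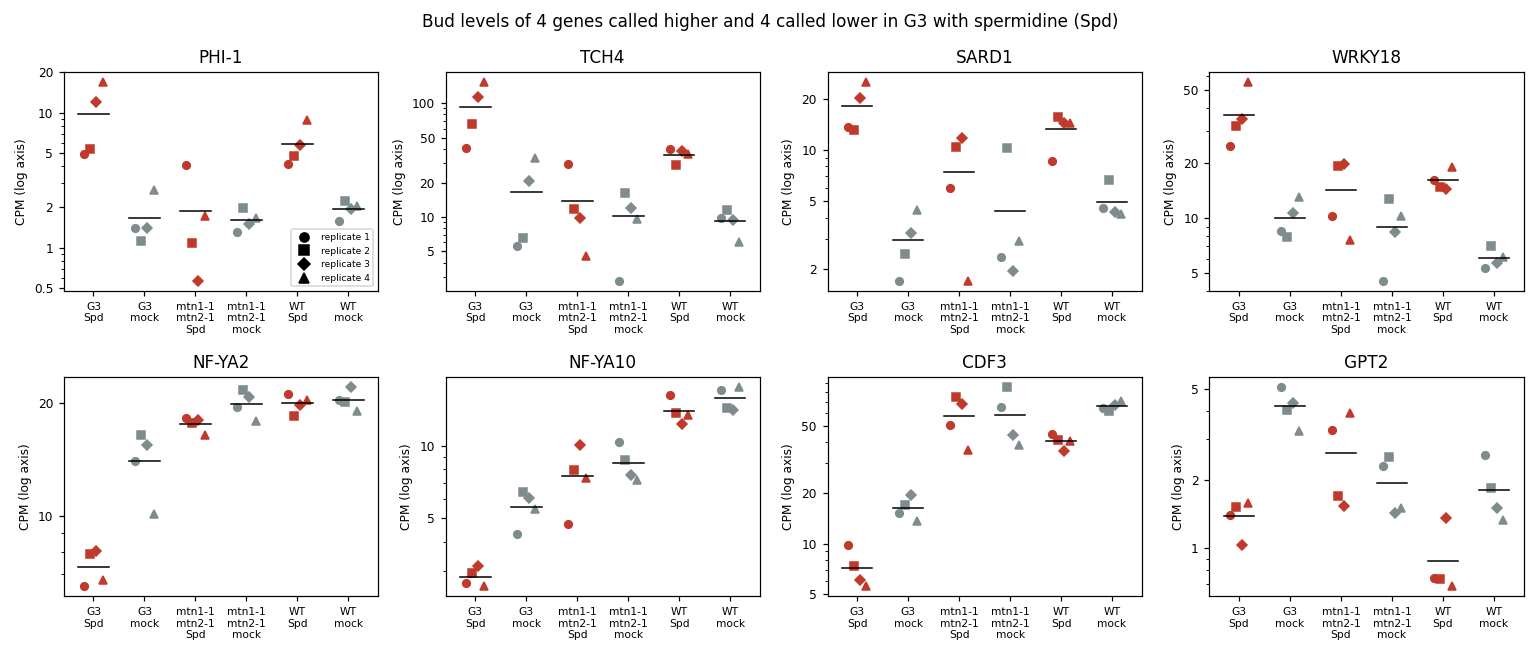
CPM on a log axis for 4 genes called higher and 4 called lower with spermidine in G3 buds, in all 24 bud libraries. Red points are spermidine libraries, grey points mock libraries, the 4 symbols the replicate numbers and the lines group means. NF-YA2 lies between 6.49 and 8.04 CPM in the 4 G3 spermidine libraries and between 10.1 and 16.4 CPM in the G3 mock libraries, and SARD1 has a gap between 4.43 and 13.1 CPM.

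The 3 lists of genes tied to the polyamine and methionine pathways held no called gene, which at a share of 0.948% over all genes is near the background for lists of this size. Among 14 genes of polyamine synthesis the median log2 fold change was -0.05, beside -0.01 over all genes tested, and the range ran from -0.28 to 0.16. The lowest was AT5G15950, an S-adenosylmethionine decarboxylase gene, at 119 ± 7.75 CPM with spermidine and 144 ± 5.37 CPM in mock buds (SD, n = 4 each; adjusted p = 0.258). Of 14 genes of polyamine oxidation and uptake, PAO2, a peroxisomal polyamine oxidase, came nearest. It had 87.8, 70.4, 88.5 and 67.5 CPM with spermidine and 139, 134, 107 and 90.2 CPM in mock buds (adjusted p = 0.0669). Of 25 genes of methionine, S-adenosylmethionine and methylthioadenosine recycling, 18 lay below 0, with a median of -0.08. The methionine synthase ATMS1, for instance, stood at 1369 ± 133 CPM with spermidine and 1603 ± 136 CPM in mock buds (adjusted p = 0.137).

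Of 17 tested markers of sulfur starvation, 2 rose and 0 fell, and the list's median was 0.33. Over all genes 0.587% rose. ATSDI1, a repressor of glucosinolate synthesis made in sulfur-starved plants, was at 14.6, 18.7, 13.1 and 14.9 CPM with spermidine and 5.19, 6.75, 8.35 and 8.53 CPM in mock buds, a 2.13-fold rise (adjusted p = 0.0241). APR3, a reductase of sulfate assimilation, was at 129, 131, 123 and 101 CPM with spermidine and 70.5, 77.2, 84.6 and 84.4 CPM in mock buds, a 1.53-fold rise (adjusted p = 0.0282). The root sulfate transporter SULTR1;2 (adjusted p = 0.0610), APR2 (0.104) and BGLU28 (0.196) had log2 fold changes of 0.60, 0.48 and 1.01 without being called. Unadjusted p was under 0.05 for 8 of the 17, all above 0, against 11.8% of all genes in either direction. The same list had a median of -0.18 in WT buds and 0.08 in mtn1-1mtn2-1 buds.

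Of 23 tested genes of iron deficiency, nicotianamine and iron storage, 2 rose, both ferritins, the proteins that store iron in plastids. Over all genes tested 0.587% rose. FER1 was at 167, 171, 189 and 180 CPM with spermidine and 133, 112, 111 and 126 CPM in mock buds, a 1.46-fold rise (adjusted p = 0.00891). FER4 was at 40.3, 40.6, 38.8 and 33.7 CPM with spermidine and 27.8, 26.3, 24.2 and 30.6 CPM in mock buds, a 1.41-fold rise (adjusted p = 0.00704). Neither overlapped between groups. The list was split, with 15 members below 0, 8 above 0 and a median of -0.50, and no member below 0 was called. Above 0 besides the ferritins FER1 and FER4 lay, among others, YSL3 and the root iron transporter IRT1. The iron-deficiency regulator bHLH38 was at 0.0971, 0.513, 0 and 1.88 CPM with spermidine and 4.23, 6.53, 12.4 and 0.568 CPM in mock buds (adjusted p = 0.201). The short peptide gene AT1G47400 was at 0.534, 1.27, 0.587 and 2.49 CPM with spermidine and 8.78, 8.82, 12.9 and 2.47 CPM in mock buds (adjusted p = 0.0680). In both genes mock replicate 4 lay with the spermidine libraries. Unadjusted p was under 0.05 for 16 of the 23, against 11.8% of all genes.

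The salicylic acid list was split, with 1 member called higher and 2 lower among 14 tested. Over all genes tested 0.587% were called higher and 0.361% lower. SARD1, described above, rose. PR5, a pathogenesis-related protein, was at 10.2, 11.6, 9.13 and 10.0 CPM with spermidine and 31.0, 15.8, 13.0 and 17.6 CPM in mock buds (1.89-fold lower; adjusted p = 0.0151). Its call was lost when only these 8 libraries were fitted (adjusted p = 0.0933). PR1, the usual marker of salicylic acid defence, was at 0.0971, 0.0437, 0 and 0.0789 CPM with spermidine and 14.1, 0.130, 2.70 and 3.16 CPM in mock buds (adjusted p = 0.0141). The spermidine libraries and mock replicate 2 sit at about 3 fragments or fewer, so no fold is given. The call of PR1 was lost in limma voom with sample weights (adjusted p = 0.378). WRKY70 was at 88.4, 80.0, 78.6 and 82.3 CPM with spermidine, against 18.0, 21.7, 42.1 and 53.0 CPM in mock buds, and was not called (adjusted p = 0.142).

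Each of 3 further lists had most members below 0. Of 14 cold and drought genes, 13 lay below 0 with a median of -0.53. The cold-response activator DREB1A was at 3.11, 2.65, 1.76 and 1.51 CPM with spermidine and 13.6, 15.2, 12.1 and 4.07 CPM in mock buds (adjusted p = 0.0612). Of 11 flavonoid and anthocyanin genes, 10 lay below 0 with a median of -0.50. TT4, the chalcone synthase that opens this pathway, was at 649, 691, 589 and 578 CPM with spermidine and 871, 929, 923 and 830 CPM in mock buds (adjusted p = 0.170). Of 21 clock genes, 14 lay below 0 with a median of -0.13. PRR5, a repressor of morning clock genes, was at 31.9, 30.4, 32.0 and 26.1 CPM with spermidine and 70.9, 63.2, 63.6 and 37.1 CPM in mock buds (adjusted p = 0.300). The clock list had 1 call, AT5G08330, a TCP factor named TCP11 in the reference annotation. It was at 33.0, 42.7, 51.4 and 69.0 CPM with spermidine and 26.9, 28.7, 26.9 and 29.0 CPM in mock buds (1.76-fold higher, adjusted p = 0.0375). That call was lost when only these 8 libraries were fitted (adjusted p = 0.0622). Over all genes tested 0.948% were called. Harvest times are not given.

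**Figure D2:**
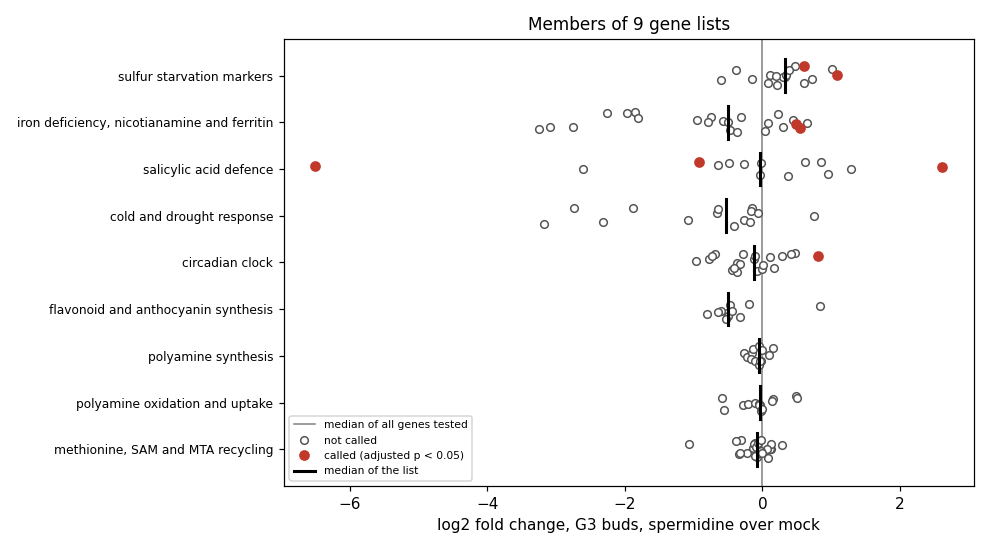
Log2 fold change between spermidine and mock G3 buds for each tested member of 9 gene lists, on the horizontal axis. Filled red points are called genes, open points are not called, black bars are list medians and the grey line is the median of all genes tested, -0.01. The sulfur list has its median at 0.33 and the iron list at -0.50, with 2 called members each, and the polyamine and methionine lists have none.

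Some lists had a single call, beside 0.948% called over all genes tested. JAZ7, a repressor of the jasmonate response, was the single call among 21 jasmonate genes. It was at 9.47, 12.3, 9.31 and 7.49 CPM with spermidine and 1.82, 1.98, 3.11 and 6.21 CPM in mock buds (2.94-fold higher; adjusted p = 0.0421). Its call was lost when only these 8 libraries were fitted (adjusted p = 0.0688) and kept in 1 of the 8 fits with 1 library left out. BEL1, a homeobox gene of ovule integuments, fell 1.46-fold (adjusted p = 0.0150) and was the only call among 10 ovule and carpel markers. LHCB2.1, a light-harvesting protein, fell 1.69-fold (adjusted p = 0.0303) and was the only call among 8 photosynthesis genes. It has a near-identical neighbour copy, so the split of reads between them is uncertain. LHCB2.2, which lies nearby and was not on the list, was also called lower, as was seen afterwards. LHCB2.1 was at 84.6 to 113 CPM with spermidine and 124 to 191 CPM in mock G3 buds. In mtn1-1mtn2-1 and WT buds it was at 810 to 1516 CPM. No member was called of the tapetum, pollen and floral organ lists, of the glucosinolate, ethylene, heat shock, detoxification and xylem lists, or of the sugar starvation list, with medians from -0.17 to 0.46. In the last, DIN10 stood at 335 to 432 CPM with spermidine and 83.6 to 170 CPM in mock buds (adjusted p = 0.0624).

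The summed markers of bud cell types overlapped between the treatments, but most single markers lay slightly lower with spermidine. The log2 fold change was below 0 for 16 of 17 tapetum and 16 of 21 pollen markers, with list medians of -0.11 and -0.13. The tapetum markers summed to 1482 to 1827 CPM with spermidine and 1616 to 1999 CPM in mock buds, and the pollen markers to 1326 to 1859 CPM with spermidine and 1440 to 1805 CPM in mock buds. Ovule and carpel markers summed to 228 to 246 CPM with spermidine and 235 to 251 CPM in mock buds. The 9 floral organ identity genes summed to 862 to 933 CPM with spermidine (889 ± 32.7; SD, n = 4) and 926 to 1031 CPM in mock buds (986 ± 44.1; SD, n = 4), and all 9 had log2 fold changes below 0, with a median of -0.17. The part of these shifts in the calls was not tested.

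Promoter letters were compared as a description, over the 300 bases before each gene start in RefSeq TAIR10.1, on both strands. The motifs were chosen with the calls known. The strings searched are short forms, so the shares are those of the letters and not of the full motifs. CGCGT stands for the CGCG box, a motif bound by calmodulin-dependent CAMTA factors. It was in 14.6% of the promoters of genes that rose, 6.45% of those that fell and 8.19% of all tested. AAATATCT stands for the evening element, a motif bound by clock factors, without its first A. It was in 3.97% of promoters of genes that rose, 17.2% of those that fell and 5.61% of all tested. The W-box was searched as TTGACC only, so its form TTGACT was not counted. TTGACC was in 16.6% of risers, 12.9% of fallers and 13.6% of all, and the G-box CACGTG in 8.61%, 8.60% and 7.34%. Promoters could be printed for named genes whose window holds the letters and touches no other gene, and whose TPM moved with the counts. The 4 printed are the 2 with the steepest rise for CGCGT and the 2 with the steepest fall for AAATATCT. Capitals mark any of the 4 strings searched, on either strand.
AT5G54720, chr5:22232950-22233249, minus strand: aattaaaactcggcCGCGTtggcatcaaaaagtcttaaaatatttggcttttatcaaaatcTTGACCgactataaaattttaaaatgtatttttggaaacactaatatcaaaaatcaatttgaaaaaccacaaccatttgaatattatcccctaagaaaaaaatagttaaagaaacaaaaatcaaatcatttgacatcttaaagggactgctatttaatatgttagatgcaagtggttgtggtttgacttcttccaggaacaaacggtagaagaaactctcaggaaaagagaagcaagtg
SARD1, chr1:27749249-27749548, minus strand: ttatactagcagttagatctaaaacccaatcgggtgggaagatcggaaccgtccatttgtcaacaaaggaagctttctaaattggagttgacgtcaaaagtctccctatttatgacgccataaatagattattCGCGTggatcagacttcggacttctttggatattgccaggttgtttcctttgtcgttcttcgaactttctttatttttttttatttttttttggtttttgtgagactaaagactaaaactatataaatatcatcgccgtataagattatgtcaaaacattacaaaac
GPT2, chr1:22824114-22824413, plus strand: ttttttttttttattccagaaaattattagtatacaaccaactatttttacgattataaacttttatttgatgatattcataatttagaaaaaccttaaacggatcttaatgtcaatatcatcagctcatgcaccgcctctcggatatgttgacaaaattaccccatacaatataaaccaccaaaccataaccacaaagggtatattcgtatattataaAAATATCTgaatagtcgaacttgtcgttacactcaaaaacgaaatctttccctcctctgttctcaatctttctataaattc
ORG1, chr5:21688463-21688762, plus strand: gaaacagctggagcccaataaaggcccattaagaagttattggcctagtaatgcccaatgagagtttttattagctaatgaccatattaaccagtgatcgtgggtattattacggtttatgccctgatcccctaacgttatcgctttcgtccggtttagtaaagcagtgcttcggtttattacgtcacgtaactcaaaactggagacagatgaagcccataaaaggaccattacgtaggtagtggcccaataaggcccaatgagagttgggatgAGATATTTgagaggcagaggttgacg
The first pair holds the letters CGCGT and the second the letters AAATATCT, which in ORG1 read on the other strand. In SARD1 and ORG1 the letter beside the capitals departs from the full motif. Besides GPT2 and ORG1, the 16 genes that fell and hold AAATATCT include PR5, MAN1, MYB111, CYP71B26, MIOX1 and STO.

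How far the calls rest on single libraries was measured by leaving out each of the 8 in turn. Without G3 mock replicate 2 the count fell to 30 genes (18 higher and 12 lower), of which 28 were among the 244. Without spermidine replicate 4 it was 42, without mock replicate 1 it was 72, without spermidine replicate 3 it was 78 and without mock replicate 3 it was 99. Without spermidine replicate 2 it was 204, without spermidine replicate 1 it was 286 and without mock replicate 4 it was 333. So 2 of the 8 libraries, when removed, raised the count, and 5 brought it below 100.

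The estimates moved much less than the calls. In each of the 8 fits all 244 genes kept the sign of their log2 fold change and had an unadjusted p under 0.01, a description that rests on shared libraries. The median ratio of their log2 fold change to that of the full fit lay between 0.897 without spermidine replicate 4 and 1.09 without mock replicate 4. The genes with an unadjusted p under 0.001 numbered 353 over all genes in the full fit and 181 to 434 in the others. The smallest adjusted p stayed under 0.05 in all of them, at 0.00577 or less.

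The libraries took unequal places among the called genes. Of the 151 genes that rose, spermidine replicate 4 was the highest spermidine library for 113 and spermidine replicate 1 the lowest for 102. Mock replicate 4 was the highest mock library, and so the nearest to spermidine, for 98. Of the 93 that fell, mock replicate 4 was again the mock library nearest to spermidine for 59, and spermidine replicate 4 was the lowest spermidine library for 53. The mean log2 CPM of the risers, relative to their mean over the 8 libraries, ran from 0.21 in spermidine replicate 1 to 0.82 in spermidine replicate 4, and from -0.68 in mock replicate 2 to -0.22 in mock replicate 4.

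In all 8 of these fits 24 genes were called, 17 higher and 7 lower. The 7 lower were NF-YA2, CSD1, ADH1, AT5G17460, AT1G55690, AT1G78170 and AT3G56260. The higher ones were FER1, FER4, CPK28, CPK4, WRKY18, MYB30, BZIP53, PIRL4, PGSIP7, D6PKL1, AT4G33420, AT5G57100, AT3G06070, AT1G61100, AT2G44500, AT2G47440 and AT4G24275. On TPM, limma also gave an adjusted p under 0.05 for 23 of the 24, the exception being AT5G17460. PHI-1 and NF-YA10 were called in 6 of the 8 fits, SARD1 in 4, TCH4 in 3, APR3 in 2 and JAZ7 in 1. Over these fits the log2 fold change of TCH4 lay between 2.15 without spermidine replicate 4 and 3.10 without mock replicate 4. FER4, at 1.41-fold, was called each time.

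Other fits called other numbers of genes, and these also varied with the library left out. With only these 8 libraries in the edgeR fit 385 genes were called, 145 of them among the 244, and leaving out 1 library gave from 18 genes, without mock replicate 2, to 746, without mock replicate 4. DESeq2 called 696, of which 243 were among the 244, and 281 to 907 with 1 library left out. Limma voom with weights per sample called 1154, of which 241 were among the 244.

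**Figure D3:**
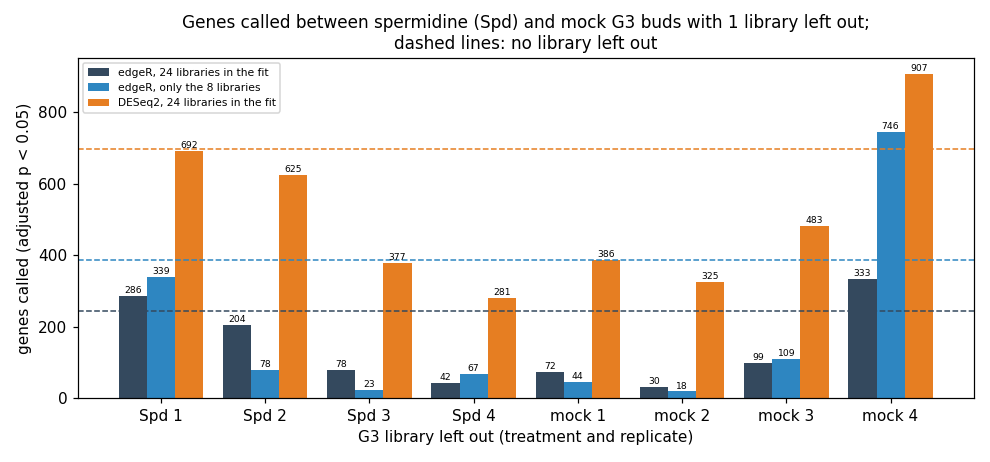
Genes called between spermidine and mock G3 buds (adjusted p under 0.05) when the library on the horizontal axis is left out, for 3 fits shown as bars. Dashed lines give the counts with no library left out, 244, 385 and 696. Removing mock replicate 2 leaves 30, 18 and 325 genes, and removing mock replicate 4 gives 333, 746 and 907.

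The TPM table offers a second quantification of the same libraries. Of the 244 genes, 241 could be tested there on log2(TPM + 1) with limma. All 241 had the same sign, 237 an unadjusted p under 0.05 and 212 an adjusted p under 0.05. A few of the most separated genes in the counts were not so in TPM. AT5G17460, which shares the smallest adjusted p with NF-YA2, was at 4.39, 4.24, 4.34 and 4.22 CPM with spermidine and 20.4, 19.5, 24.5 and 17.4 CPM in mock buds. Its TPM were 10.0, 8.80, 11.6 and 7.80 with spermidine and 14.3, 13.7, 16.9 and 11.7 in mock buds (adjusted p = 0.463 by limma on TPM). AT3G15590, named here after its values were seen, had 71.8, 71.7, 70.9 and 73.1 CPM with spermidine and 27.8, 25.3, 28.8 and 29.5 CPM in mock buds. Its TPM were 50.5, 50.0, 51.0 and 52.3 with spermidine and 47.2, 46.0, 47.0 and 52.3 in mock buds (adjusted p = 0.552). These calls hold for the counts and not for the TPM.

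AT5G42825 has no row in the TPM table used here and overlaps its neighbour AT5G42820 in the annotation. It was at 0, 0.0655, 0.641 and 0.0113 CPM with spermidine and at 25.4, 21.1, 34.1 and 33.7 CPM in mock buds (adjusted p = 0.0170), and its call was lost in limma voom with sample weights (adjusted p = 0.602). Near-zero values also occurred outside G3, at 0.282 CPM in mtn1-1mtn2-1 spermidine replicate 3, 0.182 CPM in mtn1-1mtn2-1 mock replicate 4 and 0.0659 CPM in WT spermidine replicate 2. The other 13 libraries of those groups held 8.47 to 25.3 CPM. AT3G15590 likewise took both a high and a low level among replicates of one group, at 84.8, 34.5, 78.8 and 36.0 CPM in mtn1-1mtn2-1 spermidine buds. In WT mock buds it had 51.0, 52.0, 16.9 and 24.2 CPM.

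**Figure D4:**
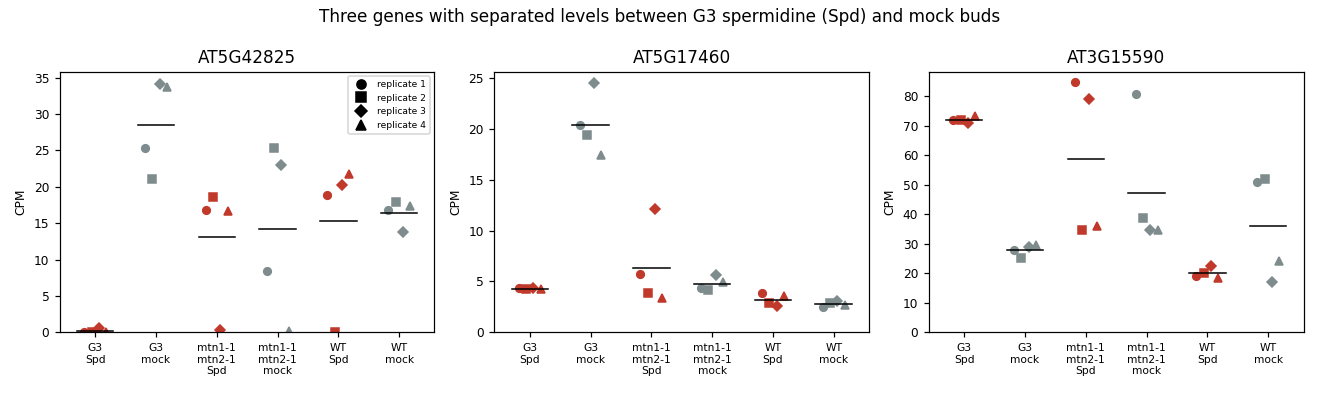
CPM of AT5G42825, AT5G17460 and AT3G15590 in all 24 bud libraries on a linear axis, with spermidine libraries in red, mock libraries in grey and lines at group means. The 2 G3 groups are separated for each gene, and AT5G42825 is also near 0 in 3 libraries of the other genotypes.

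The same treatment was set beside its counterparts in mtn1-1mtn2-1 and WT buds, which share no library with the G3 comparison. Calls were fewer there, with 25 genes (0.0972%) in mtn1-1mtn2-1 buds, 9 higher (0.035%) and 16 lower (0.0622%), and 4 (0.0155%) in WT buds, 1 higher (0.00389%) and 3 lower (0.0117%). A call in one genotype and none in another does not show a difference, so the effects were compared directly. Of the 151 genes that rose in G3 buds, 88 lay above 0 in mtn1-1mtn2-1 buds, with a median log2 fold change of 0.06, and 143 lay above 0 in WT buds, with a median of 0.39. Of the 93 that fell, 39 lay below 0 in mtn1-1mtn2-1 buds, with a median of 0.03, and 80 lay below 0 in WT buds, with a median of -0.17. Over all genes tested, 52.6% lay above 0 in mtn1-1mtn2-1 buds and 50.5% in WT buds. An unadjusted p under 0.05 in the same direction as in G3 was found for 15 risers and 7 fallers in mtn1-1mtn2-1 buds, where 10.3% of all genes had one in either direction. In WT buds it was found for 92 risers and 38 fallers, against 9.43% of all genes. The genotypes also differed in the share of counts on rRNA genes, which was 1.01% to 1.17% in G3, at least 1.66% in mtn1-1mtn2-1 and at most 0.248% in WT buds, and its part in these values was not tested.

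Some single genes show the same, though for TCH4, ERD6 and CDF3 the mtn1-1mtn2-1 groups overlapped. TCH4 had log2 fold changes of 2.50 in G3, 0.44 in mtn1-1mtn2-1 and 1.95 in WT buds. In mtn1-1mtn2-1 buds TCH4 ranged from 4.57 to 29.0 CPM with spermidine and from 2.75 to 16.2 CPM in mock buds. The part of such spread in the low mtn1-1mtn2-1 values was not tested. ERD6 had 2.16, 0.29 and 2.01, and CDF3 had -1.18, -0.03 and -0.70 in the same order of genotypes. NF-YA2 stood apart from these, at -0.94 in G3, -0.18 in mtn1-1mtn2-1 and -0.03 in WT buds. By the interaction test its effect differed between G3 and mtn1-1mtn2-1 (adjusted p = 0.0383) but did not pass against WT (0.0944). Other genes described above also changed little in WT buds. In the same order, NF-YA10 had -0.97, -0.17 and -0.18, CSD2 had -0.37, 0.02 and 0.04, and MYB111 had -0.40, -0.01 and 0.12. MYB12 had -0.74, 0.16 and -0.54, so its WT value was nearer to that in G3.

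**Figure D5:**
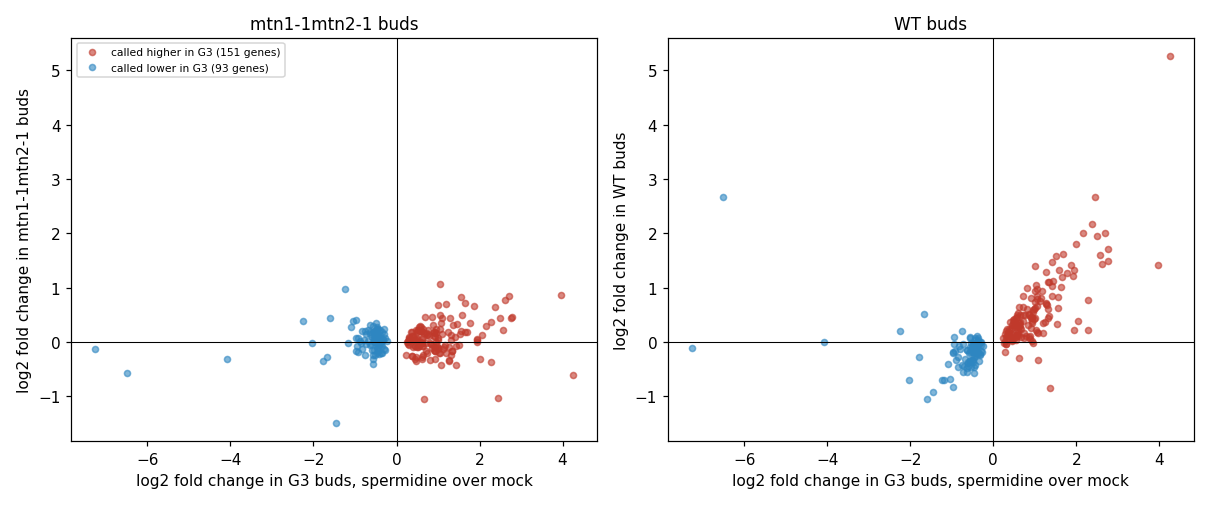
Log2 fold change between spermidine and mock buds in mtn1-1mtn2-1 (left) and WT (right) against that in G3 for the 244 genes called in G3, red where higher and blue where lower. In WT buds 143 of the 151 red points lie above 0 and 80 of the 93 blue points below, against 88 and 39 in mtn1-1mtn2-1 buds.

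By the interaction test the spermidine effect differed between G3 and WT buds for 1 gene (0.00389%), AT5G17460, whose counts and TPM disagree as given above. It differed between G3 and mtn1-1mtn2-1 buds for 89 genes (0.346%), 48 with the larger value in G3 (0.187%) and 41 with the smaller (0.159%), and 49 of these were also among the 244, though both tests use the same G3 libraries. CA2, a carbonic anhydrase, had log2 fold changes of 0.66 in G3 and -1.05 in mtn1-1mtn2-1 buds (difference 1.70 ± 0.21, adjusted p = 0.000978). In mtn1-1mtn2-1 buds CA2 was at 83.8, 83.8, 71.9 and 61.4 CPM with spermidine. The mock libraries there were widely spread, at 227, 126, 157 and 112 CPM. CYCD3;2, a D-type cyclin that promotes cell division, had 0.23 in G3 and -0.24 in mtn1-1mtn2-1 buds (difference 0.47 ± 0.08, adjusted p = 0.0249). Its call between the G3 treatments was kept in 2 of the 8 fits with 1 library left out, and was lost in an alternative fit. The 89 dropped to 2 with only the 16 compared libraries in the fit, and lay between 3 and 404 when 1 of those 16 was left out of the full fit, with the lowest count without G3 mock replicate 2 and the highest without mtn1-1mtn2-1 mock replicate 1.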

How the data were processed

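Unopened flower buds were measured by polyA RNA-seq, per the labels' protocols, with libraries from either of 2 providers and no record of which made which. The submitters' processing notes name Trim Galore, STAR, StringTie and the build TAIR10, with no versions. The authors deposited expected counts per gene as whole numbers without scaling, and TPM, whose normalization beyond the unit is not given in the sources used here. The reference (RefSeq TAIR10.1), which gave names and sequences, lists 37051 of the 37336 genes counted. Strand setting and strandedness are not given, and 56 of the 244 called genes overlap another annotated gene (31.5% of those tested do). Of the count columns, 0 were left without a sample.

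Counts were fitted with edgeR 4.0.16 in R 4.3.3: 6 bud groups in 1 model, filterByExpr, TMM, quasi-likelihood F test, Benjamini-Hochberg adjustment, with SE taken as the log2 fold change over the root of F. Log2 CPM used a prior count of 2. TPM were tested with limma 3.58.1 on log2(TPM + 1), for genes at 1 TPM or more in at least 4 libraries, a scale that understates low genes. DESeq2 1.42.0 was an alternative. The fitting step was tested on simulated counts.

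Members, the 22 gene lists and tests were chosen with earlier results of these data known. Genes named were MTN1, MTN2, called list members with up to 4 uncalled examples a list, the 12 steepest rises and 12 steepest falls among called genes whose groups did not overlap and whose higher group never fell under 50 counts, up to 15 genes called in all 8 leave-one-out fits, and up to 5 per interaction. Others, such as AT3G15590, CSD2, CCS, MYB12, MYB111, MYB11, the NF-YA family, GSTU12, XTH18, AT4G16820, EXO, AT3G19680, U1.4, SRS4, MYB112, CPK4, MYB30, BZIP53 and the evening element genes, were named after their values were seen. The microRNA search took the longest transcript of each gene and allowed no gaps and up to 4 mismatches.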

Additional observations from a re-analysis of the deposited data

Results flagged for a closer look

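Among the named genes, 7 of 102 groups of 4 had a library far from the other 3 for its range, where chance flags about 1 in 20. CPK28 stood at 80.2 CPM in spermidine replicate 4, against 56.7 to 58.2 CPM in the other 3 spermidine libraries. AT3G55710 stood at 38.3 CPM in spermidine replicate 4, against 34.2 to 34.7 CPM in the others. LHCB2.1 stood at 124 CPM in mock replicate 4, against 186 to 191 CPM in the other mock libraries. CA2 stood at 57.2 CPM in mock replicate 3, against 49.1 to 50.1 CPM. Low genes gave the rest: AT5G42825 at 0.641 CPM in spermidine replicate 3, AT4G10265 at 0.612 CPM in spermidine replicate 2, and MTN2 (AT4G34840) at 0.101 CPM in spermidine replicate 4.

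The spermidine effect differed between genotypes by the interaction test for these named genes, with the log2 difference given as the effect in G3 minus that in the other genotype. AT5G17460 had -2.45 against WT and -2.64 against mtn1-1mtn2-1 buds. Against mtn1-1mtn2-1 buds CA2 had 1.70, AT3G55710 had 0.76, AT3G01750 had -0.54 and CYCD3;2 had 0.47.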

How the results depend on the processing

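Every alternative kept the sign of the 51 named genes, where a value could be fitted. For the 244 genes called (151 higher, 93 lower), counts lay within 1.5 times under DESeq2 size factors (256), no filter (215), a mean of at least 50 counts (273), the robust fit (244), counts per fragment (289) and limma on TPM (310). Only the compared groups in the fit gave 385 (163 lower), DESeq2 696 (450 higher, 246 lower) and limma voom with sample weights 1154 (653 higher, 501 lower). Leaving out 1 library gave 30 to 333 genes, 18 to 202 of them higher and 12 to 131 lower. In fits added after seeing the data, leaving out spermidine replicates 1 to 4 and then mock replicates 1 to 4 gave 692, 625, 377, 281, 386, 325, 483 and 907 genes with DESeq2, and 339, 78, 23, 67, 44, 18, 109 and 746 with the compared groups only. For the difference between G3 and WT (1 gene; 1434 at an unadjusted p under 0.05) these 3 settings gave 15, 14 and 9 genes, limma on TPM 0, and leaving out 1 library 0 to 2. For the difference between G3 and mtn1-1mtn2-1 (89 genes) they gave 2, 520 and 551, no filter gave 56, and leaving out 1 library gave 3 to 404. The causes were not tested. Same-numbered spermidine and mock libraries did not deviate together (r from -0.10 to 0.05, and 1 of 4 correlated best with its own number), so the numbers were not taken to pair the samples. With the replicate block 292 genes were called, 232 of them among the 244, and 2 and 98 genes in the interactions. Depth limits genes under about 12 count units (3 fragments), such as PR1.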
